A study of Mus musculus with 4 samples.

Results

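These results describe 802 positions on RNA that were called as peaks in both induced libraries and again in wild-type intestine, out of 40776 peaks in the list of TRE-Msi1 replicate 2 and 240811 peaks in all 4 deposited lists. The assay was CLIP-seq against Musashi-1 (Msi1): ultraviolet light links the protein to the RNA it touches, an antibody recovers the complex, and the attached RNA is sequenced. The wild-type group was 2 libraries of intestinal crypts from control mice with the genotype Wild-type and no doxycycline. The TRE-Msi1 group was 2 libraries of all intestinal epithelial cells from mice with the genotype TRE-Msi1, given doxycycline for 24 h. In that genotype a doxycycline-responsive element controls Msi1. All 4 libraries were crosslinked at 265 nm with 400 mJ per cm2 and 2 pulses, and are described with a gel band of 50 kD. The sources used here do not give the strain, the age, or the line that supplies the transactivator. Genotype, doxycycline and cell fraction (crypts or whole epithelium) changed together between the groups and cannot be told apart.

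A peak of TRE-Msi1 replicate 2 was counted when it overlapped, on its own strand and by 1 bp or more, a peak of TRE-Msi1 replicate 1 and a peak of either wild-type list. "Induced" therefore describes the mice, not a gain of these positions, since each of the 802 also had a peak without induction. They are called counterpart peaks here. They were chosen by the positions of the called peaks in all 4 lists, so every overlap with these lists is a description and carries no test. Of all peaks of TRE-Msi1 replicate 2, 5.67% overlapped TRE-Msi1 replicate 1, 5.19% overlapped a wild-type list, and 1.97% did both and are the counterpart peaks. For each wild-type list by itself the share was 3.77% (replicate 1) and 2.16% (replicate 2). The remaining 1508 shared peaks had no wild-type overlap, and 38466 peaks were not shared with TRE-Msi1 replicate 1. The coordinates are of the mouse build mm9. No mm9 genome or gene annotation was used here, so regions are named by position, no sequence is printed, and epithelial marker genes were not looked up.

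Msi1 belongs to a small family of RNA-binding proteins that recognise short single-stranded motifs with a UAG core and regulate the stability or translation of the mRNAs that carry them. In the intestine it is known from the stem and progenitor cells at the base of the crypts, where new epithelium is made. Crosslinking recovers contacts on abundant RNA more readily than on rare RNA. No control library without the antibody or input RNA was among the samples analysed here. In these lists RNA level and protein contact cannot be told apart, nor can the number of cells of a type and the RNA in each cell.

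The lists differ in ways that touch every overlap. The wild-type lists held 4863 (replicate 1) and 5578 peaks (replicate 2), and the TRE-Msi1 lists 189594 (replicate 1) and 40776 (replicate 2). Read depth per library is unknown. Peaks of TRE-Msi1 replicate 1 were 40 bp wide and those of the other lists mostly 74 or 75 bp, and 70.8% of its peaks were on the plus strand, against 50.9 to 51.5% elsewhere. The deposited score, a strength value of unstated unit, runs from 4 to 513 in TRE-Msi1 replicate 2, from 1.5 to 19.9 in TRE-Msi1 replicate 1 and from 3 to 595 in wild-type replicate 2. It is 0 throughout wild-type replicate 1. It is used only within a list, and for wild-type replicate 1 the row order is given in its place. In the other 3 lists score fell along the row order, with Spearman's rho across peaks from -0.989 to -0.905. Intervals are 95% Wilson intervals for shares. They cover counting error only and treat peaks of one library as independent, which neighbouring peaks are not.

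Most counterpart peaks had their wild-type partner in wild-type replicate 1. The partner lay in wild-type replicate 1 alone for 559 of 802 peaks (69.7%, 66.4 to 72.8%) and in wild-type replicate 2 alone for 100 (12.5%, 10.4 to 14.9%). A peak in all 4 lists was held by 143 (17.8%, 15.3 to 20.6%), which compares with 0.351% of all TRE-Msi1 replicate 2 peaks and 6.19% of the shared ones. Some intervals occur more than once in the list, and the 802 rows are 777 distinct intervals, 138 of them in all 4 lists. Without wild-type replicate 1 the number of counterpart peaks was 243, and without wild-type replicate 2 it was 702.

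The wild-type lists met each other more often at counterpart peaks than over their whole length, and unevenly. Of the 702 counterpart peaks found in wild-type replicate 1, 20.4% (17.6 to 23.5%) were also found in wild-type replicate 2, against 10.6% of the whole wild-type replicate 1 list. Of the 243 found in wild-type replicate 2, 58.8% (52.6 to 64.9%) were also found in wild-type replicate 1, against 9.38% of the whole list. Peaks of TRE-Msi1 replicate 2 that TRE-Msi1 replicate 1 did not share gave 159 of 837 (16.5 to 21.8%) and 159 of 637 (21.8 to 28.5%) for these shares. A position found in wild-type replicate 2 was thus also in wild-type replicate 1 more often when TRE-Msi1 replicate 1 held it, with intervals that did not overlap. These shares were not set at equal score.

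Counterpart peaks scored higher than other peaks of the same library. Their median score in TRE-Msi1 replicate 2 was 13 (quartiles 8 and 22). It was 9 (6 and 14) for shared peaks without a wild-type overlap and 6 (5 and 8) for unshared peaks. Unshared peaks with a wild-type overlap had a median of 9 (6 and 15). The 143 peaks of all 4 lists had a median of 20 (10.5 and 40), and those with wild-type replicate 1 alone or wild-type replicate 2 alone had a median of 12 each. The range within the set was wide, since 27 counterpart peaks had the lowest score of the list, 4, among 7483 peaks with that score. Of these 27, wild-type replicate 1 held 21 and wild-type replicate 2 held 8, with 2 in both.

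Scores from the other libraries ranked the counterpart peaks in a like order. The rule used the called peaks of these lists, and overlap between lists rose with score. This order is therefore a description and not separate support. The overlapping peak of TRE-Msi1 replicate 1 had a median score of 4.2 at positions of all 4 lists, 2.6 with wild-type replicate 1 alone and 2.3 with wild-type replicate 2 alone. It was 1.9 at shared positions without a wild-type peak, and 1.8 over the whole list. In wild-type replicate 2 the partner had a median score of 19 at positions of all 4 lists and 9 at positions without wild-type replicate 1, against 6 over its list. In wild-type replicate 1 the partner stood a median of 10.9% down the row order at positions of all 4 lists. It stood 29.5% down at positions without wild-type replicate 2. For unshared peaks with a wild-type overlap, the partner had a median score of 8 in wild-type replicate 2. In wild-type replicate 1 their partner stood 44.2% down. Positions in all 4 lists thus stood higher than the other counterpart peaks in each library.

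Across the counterpart peaks this order was loose. They were ranked by score in TRE-Msi1 replicate 2 and divided into 4 groups of 200 or 201. The median TRE-Msi1 replicate 1 score was 2.1 in the lowest group, 2.4 and 2.7 in the middle ones and 3.4 in the highest. The share in all 4 lists was 8.46% (5.35 to 13.1%) in the lowest group, 30 of 200 and 29 of 200 in the middle ones and 33.3% (27.2 to 40.1%) in the highest. Spearman's rho between the TRE-Msi1 scores was 0.352 over 802 peaks, and 0.340 between the replicate 2 scores of both groups over 243 peaks. These are descriptions across positions, and the RNA level at them, which was not measured, was not taken into account.

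**Figure D1:**
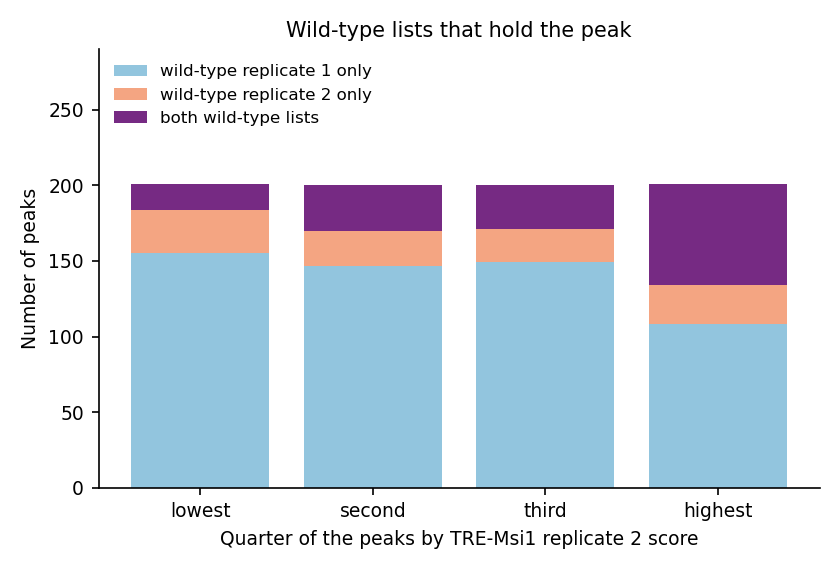
Number of counterpart peaks (vertical axis) in each of 4 equal groups of the 802 by TRE-Msi1 replicate 2 score, divided by the wild-type list that holds the overlapping peak. Peaks in both wild-type lists number 17 in the lowest group, 30 and 29 in the middle ones and 67 in the highest.

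Seen from each list, the peaks ranked highest were the ones most often found at counterpart positions. The rank was by score, or by row order in wild-type replicate 1, where no strength value is given. In the first 10% of the rows of wild-type replicate 1, 162 of 486 peaks (33.3%, 29.3 to 37.6%) touched a counterpart peak, against 19 of 486 (3.91%) in the last 10%. In wild-type replicate 2 the top 10% by score gave 117 of 558 (17.8 to 24.5%) and the bottom 10% 4 of 558 (0.717%). In TRE-Msi1 replicate 2 the numbers were 407 of 4078 (9.98%) and 13 of 4078 (0.319%). In TRE-Msi1 replicate 1, 258 of the 18959 peaks of its top 10% (1.36%) and 23 of its bottom 10% (0.121%) touched one. Over the whole lists the shares were 14.2% (wild-type replicate 1), 4.36% (wild-type replicate 2), 1.97% (TRE-Msi1 replicate 2) and 0.407% (TRE-Msi1 replicate 1). The length of a list limits these shares, since 772 of the 189594 peaks of TRE-Msi1 replicate 1 touched a counterpart peak, so they are read within a list only.

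Because strong peaks overlap other lists more often, shared and unshared peaks of TRE-Msi1 replicate 2 were next compared at equal score. At each exact score the share of unshared peaks with a wild-type overlap was taken, and these shares were weighted by the scores of the shared peaks. Before any weighting, 34.7% of shared and 3.42% of unshared peaks overlapped a wild-type list. Over the scores present in both sets, a wild-type overlap was held by 34.2% of the shared peaks and 8.34% of unshared peaks at equal score. The difference was 25.9 percentage points (95% interval 23.9 to 27.9), or 4.10-fold. Without regard to score the fold was 10.2, so part of that contrast went with score and most of the difference in share remained at equal score. For 29 of the 2310 shared peaks no unshared peak had the same score, and they stayed out of this comparison. Peaks of one library are not replicates, so the interval covers counting error and no p-value is given.

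The remaining difference was carried mainly by wild-type replicate 1. Before weighting, wild-type replicate 1 overlapped 30.4% of shared and 2.18% of unshared peaks, and wild-type replicate 2 overlapped 10.5% and 1.66%. At equal score, 30.0% of shared and 5.94% of unshared peaks overlapped wild-type replicate 1, a difference of 24.0 points (22.1 to 26.0). With wild-type replicate 2 the shares were 10.0% and 4.14%, a difference of 5.85 points (4.55 to 7.16). The ratios were 5.05 and 2.41. Positions that TRE-Msi1 replicate 1 shared thus held more overlaps with both wild-type lists at equal score, and by more points with the wild-type library that also has the number 1. The sources used here do not say whether libraries of one number were prepared together.

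With wild-type replicate 1 the ratio of the shares was larger among weak peaks than among strong ones. At score 4, wild-type replicate 1 overlapped 21 of 152 shared peaks (13.8%, 9.22 to 20.2%) and 54 of 7331 unshared peaks (0.737%, 0.565 to 0.960%). At scores of 10 to 11 the shares were 30.2% and 2.49%, and at 20 to 29 they were 39.4% and 13.2%. Among peaks scored 100 or more, 11 of 19 shared and 10 of 19 unshared peaks overlapped wild-type replicate 1, and the intervals of these shares overlapped. With wild-type replicate 2 the intervals of shared and unshared peaks already overlapped at scores of 30 to 49, at 20.5% (14.5 to 28.1%) and 19.3% (14.8 to 24.8%). At the top of the list, wild-type overlap was thus frequent whether or not TRE-Msi1 replicate 1 shared the peak.

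**Figure D2:**
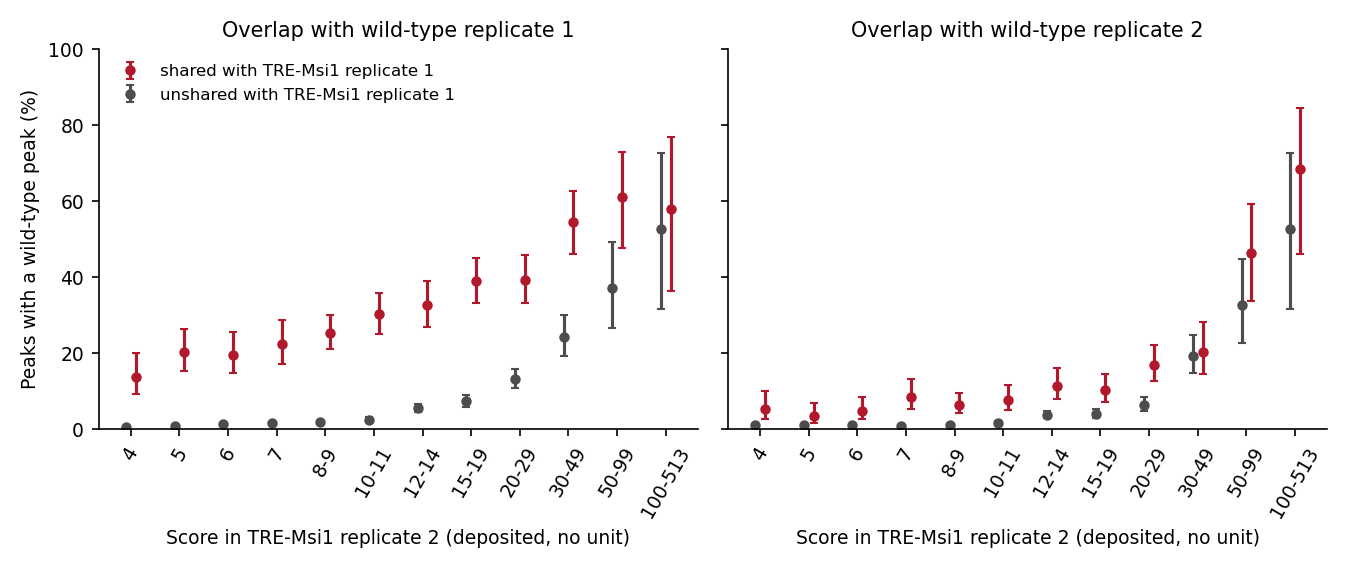
Share of TRE-Msi1 replicate 2 peaks (percent, vertical axis) that overlap wild-type replicate 1 (left) or wild-type replicate 2 (right), by deposited score, for peaks shared and not shared with TRE-Msi1 replicate 1. Points are shares and bars 95% Wilson intervals; at score 4 the shares with wild-type replicate 1 are 13.8% (shared) and 0.737% (unshared), and the sets draw together at the highest scores.

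The overlapping peaks were not centred alike. Offsets were measured along the RNA from the centre of the TRE-Msi1 replicate 2 peak to the nearest centre among the overlapping peaks of another list, with negative values upstream. Peaks of wild-type replicate 2 were centred on the same place, with a median offset of 0 bp (quartiles -13 and 14) over 243 peaks, and 43.2% lay within 10 bp. Peaks of wild-type replicate 1 had a median of 1.5 bp (-19.3 and 28.5) over 702, with 27.2% within 10 bp. Peaks of TRE-Msi1 replicate 1 lay upstream, with a median of -25 bp (-41.5 and -1.5) over 802, and 611 of them (76.2%, 73.1 to 79.0%) were upstream of the centre.

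The upstream shift of TRE-Msi1 replicate 1 was the same on both strands, with a median of -25 bp on the plus strand (344 peaks) and on the minus strand (458 peaks). It was larger where more lists held a peak. At positions of all 4 lists the median was -29.5 bp and 84.6% (77.8 to 89.6%) lay upstream, and at shared positions without a wild-type peak it was -14.5 bp with 64.3% (61.8 to 66.6%) upstream. A 40 bp peak can overlap a 75 bp peak with its centre up to 56.5 bp away on either side. The narrower width limits the size of the offset, and the part of peak calling in its direction was not tested.

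**Figure D3:**
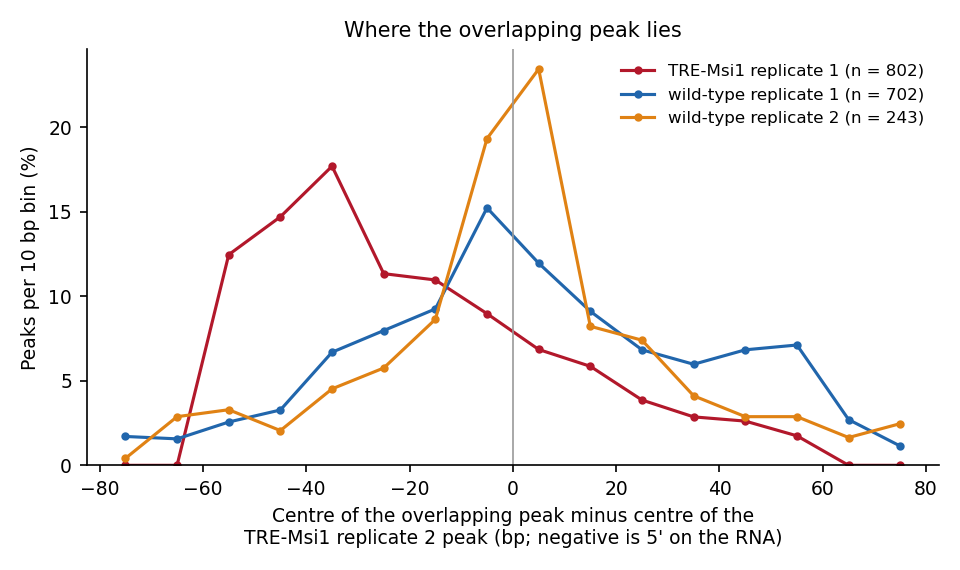
Offset of the overlapping peak's centre from the TRE-Msi1 replicate 2 centre (horizontal axis, bp, negative upstream) for counterpart peaks, in bins of 10 bp as percent of peaks in each list. The median is -25 bp for TRE-Msi1 replicate 1, 1.5 bp for wild-type replicate 1 and 0 bp for wild-type replicate 2.

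Where a peak was present in all 4 lists, a base common to all of them existed in 113 of 143 cases (79.0%). The common stretch had a median of 20 bp (quartiles 9 and 32) and at most 40 bp, the width of a TRE-Msi1 replicate 1 peak, and it was at least 20 bp long in 57 cases. In the other 30 cases each list overlapped the TRE-Msi1 replicate 2 peak, but at different parts of it. Over all counterpart peaks the overlap with the wild-type partner ranged from 1 to 75 bp with a median of 54 bp, and that with TRE-Msi1 replicate 1 from 1 to 40 bp with a median of 26.5 bp.

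At the edge of the overlap rule, peaks just inside and just outside it had overlapping score ranges. On the wild-type side the median was higher just inside. The wild-type overlap was at most 10 bp in 41 counterpart peaks, whose scores ran from 4 to 55 with a median of 14. The nearest wild-type peak was at most 10 bp away, without overlap, from 56 shared peaks that the rule left out, with scores from 4 to 51 and a median of 9. On the TRE-Msi1 replicate 1 side, 148 counterpart peaks overlapped by at most 10 bp (scores 4 to 185, median 13) and 148 peaks with a wild-type partner missed by at most 10 bp (4 to 85, median 12).

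The 10 counterpart peaks with the highest TRE-Msi1 replicate 2 score came from the mitochondrial genome and 6 nuclear chromosomes. On the mitochondrial plus strand, chrM:1405-1479 scored 513 and overlapped a peak of score 13.3 in TRE-Msi1 replicate 1 and 340 in wild-type replicate 2. The peak at chrM:1396-1470 scored 271 and overlapped the same partners, so these are shifted calls at one place. The peak at chrM:854-928 scored 376 and was present in all 4 lists, with 14.5 in TRE-Msi1 replicate 1, 364 in wild-type replicate 2 and place 6 in the rows of wild-type replicate 1. The RefSeq gene table used here, which is of another build (GRCm38.p6), lists the mitochondrial ribosomal RNA genes mt-Rnr1 and mt-Rnr2. Peaks were not assigned to them. Of the 15 mitochondrial peaks of TRE-Msi1 replicate 2, 3 were counterpart peaks, and these were the 3 with the highest scores.

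Of the 7 nuclear peaks among these 10, 5 were in all 4 lists. The peak at chr2:22600328-22600402 (minus strand) scored 199, with 16 in TRE-Msi1 replicate 1, 19 in wild-type replicate 2 and place 29 in wild-type replicate 1. At chr16:35981706-35981780 (minus) the scores were 163, 16.2 and 189, with place 7. At chr13:97960440-97960514 (minus) they were 159, 13.6 and 199, with place 25. The chromosome 2 interval is listed again with a score of 30, and the higher score is the one given. These 3 positions thus stood near the head of every list, except that the chromosome 2 position had a moderate score in wild-type replicate 2.

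The remaining nuclear peaks were more uneven between libraries. At chr10:90644792-90644866 (minus) the scores were 131, 8.7 and 16, with place 37 in wild-type replicate 1. At chr16:4590286-4590360 (minus) they were 130, 3.1 and 70, with place 823. The peak at chr9:123371281-123371355 (plus) scored 185, and its partners scored 19.2 in TRE-Msi1 replicate 1 and 83 in wild-type replicate 2, while wild-type replicate 1 held no overlapping peak. The peak at chr1:133470567-133470641 (plus) scored 165 and 6.5 in the TRE-Msi1 libraries and stood at place 1031 in wild-type replicate 1, with no overlapping peak in wild-type replicate 2. A high score in one library therefore did not fix the standing in another.

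The 10 positions of all 4 lists with the highest mean score percentile, taken over the 3 lists that carry scores, included 3 of those just described. Of the others, chr6:3151505-3151579 (plus) scored 114 in TRE-Msi1 replicate 2, 13.4 in TRE-Msi1 replicate 1 and 295 in wild-type replicate 2, at place 13 in wild-type replicate 1. This interval too is listed again, with a score of 38. At chr16:57391604-57391678 (minus) these values were 104, 10.8 and 327, with place 11. Both rank with the mitochondrial position as high in every list, by score or, in wild-type replicate 1, by row order. At chr18:68851811-68851885 (plus) they were 74, 16.6 and 161, with place 23, and at chr1:124253729-124253803 (minus) 121, 9 and 82, with place 32. At chr13:44964923-44964997 (minus) they were 53, 9.9 and 77, with place 39. At chr2:90235214-90235288 (minus) the values were 39, 6.1 and 176, with place 26, and at chr19:51217011-51217085 (minus) they were 89, 6.6 and 53, with place 235. These positions on chromosomes 2 and 19 had the lowest TRE-Msi1 replicate 1 scores of the 10. Among the 10 positions, 9 stood within the first 50 rows of wild-type replicate 1, 8 had their TRE-Msi1 replicate 1 peak upstream, and 7 were on the minus strand.

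Within the TRE-Msi1 replicate 2 list these strongest positions mostly stood alone. In 8 of the 10 no other, non-overlapping peak of that list lay within 5000 bp on the same strand. For peaks of TRE-Msi1 replicate 1 the same held in 5 of the 10. Over all counterpart peaks 202 of 802 (25.2%, 22.3 to 28.3%) stood alone within the TRE-Msi1 replicate 2 list. The share was 40.6% (32.9 to 48.8%) for positions of all 4 lists and 21.9% (18.9 to 25.2%) for those of 3 lists. Solitary peaks were thus more frequent among positions of all 4 lists than among those of 3 lists, with intervals that did not overlap. Over all scores the share was 44.3% for peaks of TRE-Msi1 replicate 2 only and 35.1% for unshared peaks with a wild-type overlap. For shared peaks without a wild-type overlap it was 20.2%. Standing alone was thus not particular to positions of all 4 lists.

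Among strong peaks the intervals of this share overlapped between several sets. At scores of 50 or more, 17 of 29 positions of all 4 lists stood alone (58.6%, 40.7 to 74.5%), and 9 of 24 positions of 3 lists (37.5%, 21.2 to 57.3%). Among peaks of these scores in TRE-Msi1 replicate 2 only, 7 of 43 did (16.3%, 8.12 to 30.0%). Among shared peaks without a wild-type overlap 4 of 20 did (20.0%, 8.07 to 41.6%). Among peaks with a wild-type overlap that TRE-Msi1 replicate 1 did not share 14 of 43 did (32.6%, 20.5 to 47.5%), an interval that overlaps those of all the other sets. The interval for all 4 lists lay wholly above that for TRE-Msi1 replicate 2 only. At scores of 4 to 9 the share was 34.5% for all 4 lists (10 of 29 peaks, 19.9 to 52.7%). It was 47.6% (47.1 to 48.2%) for TRE-Msi1 replicate 2 only, and these intervals overlapped.

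**Figure D4:**
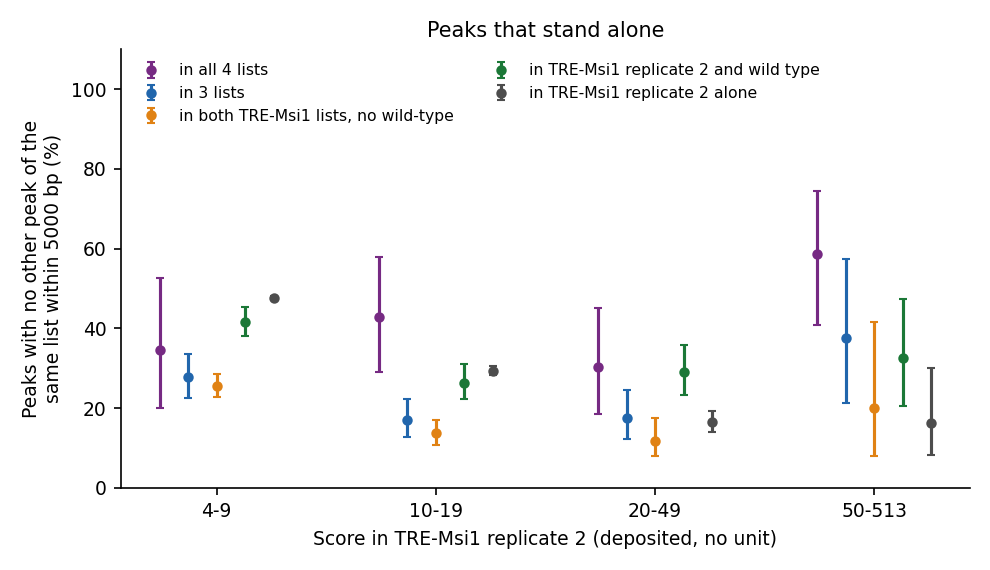
Share of TRE-Msi1 replicate 2 peaks with no other, non-overlapping peak of that list within 5000 bp on the same strand (percent, vertical axis), by deposited score and by the lists that hold the peak. Points are shares and bars 95% Wilson intervals; at scores of 50 to 513 the share is 58.6% for positions of all 4 lists, 32.6% for unshared peaks with a wild-type overlap and 16.3% for peaks of TRE-Msi1 replicate 2 alone.

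Other counterpart peaks lay in groups. When those up to 10000 bp apart on a strand were joined, the 802 peaks formed 679 loci, of which 578 held 1 peak, 83 held 2 and 18 held 3 or more. The 101 loci with more than 1 peak held 224 peaks (27.9%). Repeated rows are counted here. Some loci of 2 peaks are 1 interval listed again, as at chr2:22600328-22600402, or calls that overlap each other, as at chr5:115302058-115302136. These numbers therefore overstate the grouping of distinct positions. No share of other peaks under the same joining is given here, so grouping particular to counterpart peaks is not shown. The largest, chr18:61736894-61749378 on the plus strand, held 6 counterpart peaks (5 distinct intervals) with scores between 10 and 30. Of these, 5 matched wild-type replicate 1, 1 matched wild-type replicate 2, and none was in all 4 lists. Over its 12485 bp each TRE-Msi1 list held 9 peaks, wild-type replicate 1 held 4 and wild-type replicate 2 held 1.

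The next locus, chr9:115151868-115160940 (minus), held 4 counterpart peaks scored 9 to 23, among 10 and 7 peaks of TRE-Msi1 replicates 1 and 2 and 4 and 1 of the wild-type replicates. Another 16 loci held 3, and the first 4 of them in chromosome order were chr1:64777784-64779995, chr4:40753885-40754800, chr5:147547861-147548311 and chr6:51414413-51416581, all on the minus strand. Scores were 25 to 58 in the chromosome 1 locus and 13 to 55 in the chromosome 6 locus, against 8 to 11 and 7 to 13 on chromosomes 4 and 5. On chromosome 4, 2 of the 3 were in all 4 lists, on chromosome 6 it was 1, and on chromosomes 1 and 5 none. The loci on chromosomes 4 and 5 held only 2 distinct intervals each, because 1 interval is listed again. On chromosome 4 that repeated interval, chr4:40753885-40753959, is the one in all 4 lists. The 6 loci thus drew on wild-type replicate 1 in the main, but 4 of them were taken from the 16 by position only. Not all of the 16 were like them. The mitochondrial locus, chrM:854-1479, held 3 counterpart peaks scored 271 to 513. All 3 matched wild-type replicate 2 and 1 matched wild-type replicate 1. At chr16:33804740-33812002 (plus) all 3, scored 11 to 21, were in all 4 lists.

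Peaks of every library were also denser around counterpart peaks than around unshared peaks of equal score. Another, non-overlapping TRE-Msi1 replicate 2 peak lay within 5000 bp on the same strand of 600 of the 802 (74.8%, 71.7 to 77.7%). For the 781 with an unshared peak of equal score the share was 75.5% against 68.9%, a difference of 6.68 points (3.52 to 9.84). Within 1000 bp the difference was 17 points (13.4 to 20.7), at 58.6% against 41.6%. For TRE-Msi1 replicate 1 the share within 5000 bp was 84.6% against 63.7%, a difference of 20.9 points (18.2 to 23.6). A further peak of wild-type replicate 1 lay as near to 55.7% of counterpart peaks against 29.6%, and one of wild-type replicate 2 to 31.8% against 21.1%. Within 5000 bp, shared peaks without a wild-type overlap exceeded unshared peaks of equal score by more than the counterpart peaks did. Their excess was 16.6 points for TRE-Msi1 replicate 2 (14.5 to 18.7) and 27.2 for TRE-Msi1 replicate 1. With wild-type replicates 1 and 2 it was 32.3 and 11.5 points, against 26.1 and 10.6 for counterpart peaks. Unshared peaks with a wild-type overlap exceeded by 1.28 (-1.38 to 3.94), 18.1, 14.1 and 9.87 points in the same order. Denser surroundings were thus not particular to counterpart peaks. All these differences use the same unshared peaks, which include those with a wild-type overlap. The level of the underlying RNA was not measured, and its part in these densities was not tested.

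Counterpart peaks were found on the minus strand more often than on the plus strand. The plus strand held 344 of 802 (42.9%, 39.5 to 46.3%), against 52.7% of unshared peaks at equal score, a difference of -9.91 points (-13.6 to -6.26). Counting each locus once gave 293 of 679 (43.2%, 39.5 to 46.9%). The lean was thus of the same size when crowded loci counted once. It ran against the plus-strand excess of the whole TRE-Msi1 replicate 1 list, whose peaks at these positions were on the same strands by the rule. Shared peaks without a wild-type overlap gave 46.4% (43.9 to 48.9%), and unshared peaks with a wild-type overlap 57.4% (54.7 to 60.1%).

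Over the chromosomes the counterpart peaks followed the other peaks closely. Every numbered chromosome and the X chromosome held some, from 23 on chromosome 15 to 80 on chromosome 1. In 19 of these 20 chromosomes the interval of their share included the share of unshared peaks at equal score. Chromosome 11 was the exception, with 75 peaks, or 9.35% (7.53 to 11.6%) against 7.48%, a gap that is not adjusted for the 20 chromosomes compared. Chromosome 1 held 9.98% (8.09 to 12.2%) against 8.23%, and the X chromosome 3.12% (2.12 to 4.56%) against 2.90%. The mitochondrial genome held 3 and an unplaced chromosome 13 sequence 1.

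**Figure D5:**
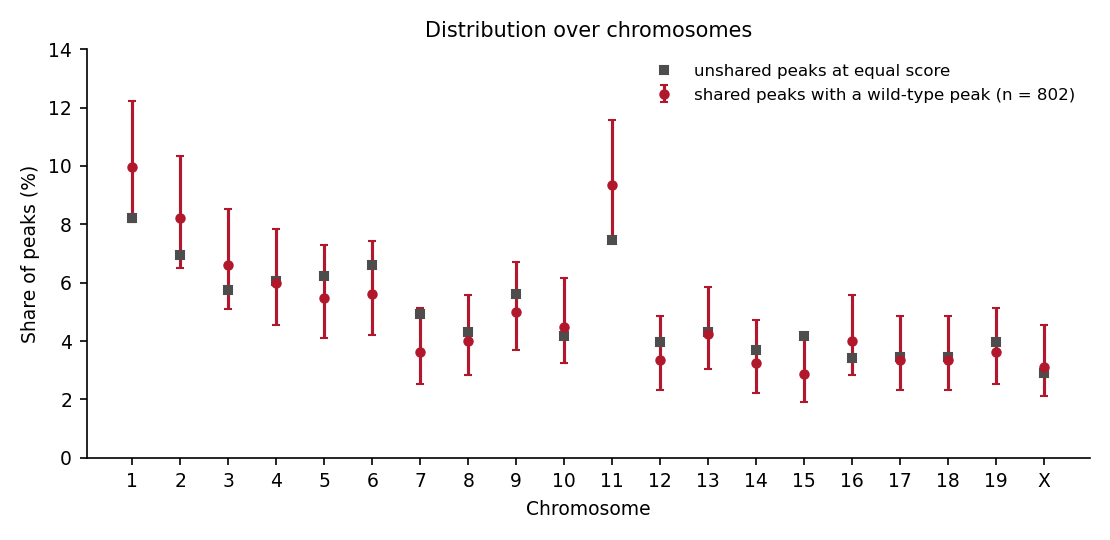
Share of the 802 counterpart peaks on each chromosome (percent, vertical axis; points with 95% Wilson intervals) beside the share of unshared TRE-Msi1 replicate 2 peaks weighted to the same scores (squares). The squares fall within the intervals in 19 of 20 chromosomes, with chromosome 11 the exception at 9.35% against 7.48%.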

How the data were processed

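Per the submitters' processing notes, Bowtie, HOMER and the build mm9 were used; their settings were not given in the sources used here. Each deposited file is the peak list of 1 library with a score of unstated unit, used only to rank or stratify peaks within a list. Groups and replicate numbers came from the titles, and the protocols speak of 2 mice per group. Overlap required 1 bp on the same strand. It was tested on simulated lists, and differed from bedtools for 0 peaks in 3 comparisons. Equal-score shares were standardised over exact scores with normal 95% intervals. Named regions are the 10 counterpart peaks of highest TRE-Msi1 replicate 2 score, the 10 of all 4 lists with the highest mean score percentile and the 6 loci with the most members, with ties by position. The members and these rules were chosen with earlier results of these data known. Annotation and motif counts need an mm9 reference, which was not used here. With 2 libraries per group no test over samples was made. Alternatives were reciprocal overlap of 50%, either strand, 75 bp peaks, identical intervals once, no peaks of the mitochondrial genome or of chromosome 17 at 39 to 40 Mb, the top 25% of lists, score deciles, 1000 bp loci and leaving out each library; a 1000 bp neighbourhood was added after seeing the data. Coordinates are 1-based. Software: Python 3.11.15, numpy 2.4.6, pandas 2.3.3, matplotlib 3.10.9, bedtools 2.31.1.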

Additional observations from a re-analysis of the deposited data

How the results depend on the processing

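The number of counterpart peaks (802) fell to 178 with a reciprocal overlap of 50% and to 270 in the top 25% of each list, and ranged from 243 to 2350 when a library was left out. It stayed within 1.5 times with the other 4 settings, which were either strand, peaks resized to 75 bp, identical intervals once, and no mitochondrial or chromosome 17 bin peaks, and without wild-type replicate 2. The equal-score difference (25.9 points) was 14.4 points with reciprocal overlap, 33.7 in the top 25% of lists, and 5.85 to 24.0 without a wild-type library, and it kept its direction in all 9 alternatives. Without a TRE-Msi1 library it could not be computed. The share in all 4 lists (17.8%) was 24.1% in the top 25% of lists; with a TRE-Msi1 library left out, the share in all remaining lists was 9.15 to 14.3%. Without a wild-type library no such share exists. Joining within 1000 bp gave 716 loci against 679. The reciprocal setting asked a 40 bp peak of TRE-Msi1 replicate 1 to cover 50% of a 75 bp peak, and its median overlap was 26.5 bp. Where values moved, the cause was not tested, beyond the fewer rows or lists that a setting leaves. No paired analysis was possible because no result comes from a test over samples. Annotation classes and motifs were not run. Depth per library is unknown, so peaks missing from a list were not shown to be absent from that tissue.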

Other observations

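The strongest peaks of TRE-Msi1 replicate 2 that are no counterpart peaks include a stretch of chromosome 17. There the list held 6 peaks between 39983516 and 39985152, scored 157 to 292, of which 5 overlapped a wild-type peak and 1 a TRE-Msi1 replicate 1 peak, but none overlapped both. On the mitochondrial genome, 6 of the 15 peaks overlapped a wild-type peak and 4 a TRE-Msi1 replicate 1 peak. Peaks with a wild-type overlap that TRE-Msi1 replicate 1 did not share also differed in where the wild-type replicate 1 partner lay. Its centre was a median of -14.5 bp (upstream) from the TRE-Msi1 replicate 2 centre over 837 peaks, against 1.5 bp at counterpart peaks, while that of wild-type replicate 2 was at 0 bp in both sets.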
